A study of Mus musculus with 32 samples.

Results

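The transcripts described here were those that were lower after KCl depolarization in all 4 replicates of the Pan-TurboID inputs, and the question was whether they were also lower in the fractions that did not choose them. A transcript entered the set when its length was 1000 to 7999 nt, its mean estimated count over the 32 libraries was at least 200, and its log2(CPM + 1) was lower by 0.5 or more in the depolarized than in the resting Pan input of each replicate. CPM is a library's count scaled to a common total, here the total without 3 very abundant transcripts (uc009sgd.1, uc012eno.1 and uc033jng.1). Of 51884 transcripts, 6360 met the length and count limits and are called eligible below, and 180 of these were members. The rule also left out 2 further transcripts by name (uc008thw.1 and uc009plj.1). The files carry UCSC transcript identifiers and do not pair them with gene names, and 0 of the identifiers matched the name tables used here, so the members are named by identifier only.

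The libraries were made from primary cortical neurons of embryonic CD-1 mice, grown in vitro and transduced with a doxycycline-inducible lentivirus. TurboID is a biotin ligase that labels proteins close to it. Pan-TurboID carries no localization signal and TurboID-PSD95 carries elements of the postsynaptic protein PSD95. Both constructs were used in resting (REST) and KCl-depolarized (DEP) cultures, and each culture gave an input, 15% of the UV-crosslinked lysate, and a streptavidin pulldown of RNA bound to biotinylated protein, for 8 groups of 4 libraries. All cultures received cycloheximide for 2 min and biotin for 30 min. Depolarized cultures were silenced with tetrodotoxin and DL-AP5 for 2 h and exposed to 55 mM KCl for 1 h. They were then kept for 30 min in fresh medium that again held both silencers. No silencing is recorded for the resting cultures, so effects of KCl and of the silencers cannot be told apart in the KCl changes below. Because the lentivirus drives TurboID in whatever cells it enters and the inputs hold all RNA of the lysate, fewer cells of a type and less RNA per cell cannot be told apart in these bulk samples. The paper reports cultures free of contaminating non-neuronal cells, judged by immunofluorescence and by transcript analyses. No neuronal or glial markers could be looked up here without gene names.

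Depolarization with KCl opens voltage-gated calcium channels, and the calcium that enters drives a transcriptional program known best for its induced immediate early genes. The level of a transcript falls when less of it is made or more of it is degraded, and a fall in the whole cell lowers what any subcellular fraction can hold. An input reads that whole-cell level, whereas a pulldown reads the share of the RNA that was crosslinked to labelled proteins.

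Total estimated counts were 2950000 to 19300000 per library, and 613000 to 17600000 without the 3 abundant transcripts. In 6 libraries uc009sgd.1 alone took over 50% of the counts, among them the depolarized Pan inputs of replicates 3 and 4, which helped to choose the members. For the 8 libraries of replicate 2, the state in the free-text description was the reverse of the state in the title, and the title was followed. Counts of members called in a comparison with the states of the descriptions, and without those of the 6 libraries that a fit held, are given beside the results they change. In both cases the members stayed those chosen by titles from all Pan inputs, replicate 2 among them. Counts of members by replicate, by pair or by overlap of libraries follow the titles alone.

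In the Pan inputs, which chose the members, the median of depolarized minus resting log2(CPM + 1) over the 180 members was -0.98, -1.30, -0.85 and -1.30 in replicates 1 to 4, and over the eligible transcripts it was -0.05, -0.03, -0.02 and -0.14. These values describe the choice and were not tested. At the edge of the rule, the member with the smallest fall was uc007jpg.2 (4660 nt), whose least change was -0.50, and the nearest transcript outside it was uc009bik.2 (6228 nt), whose least change was -0.497 against -0.503 for the member. In the other Pan input replicates uc007jpg.2 changed by -0.70, -7.45 and -6.75, and in the 3 other fractions its changes took both signs. Membership was therefore not a sharp class, since 62 members had a least change between -0.6 and -0.5 and 87 transcripts that were not members had one between -0.5 and -0.4. The eligible transcripts held 19.1% with a change below 0 in all 4 Pan input replicates.

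**Figure D1:**
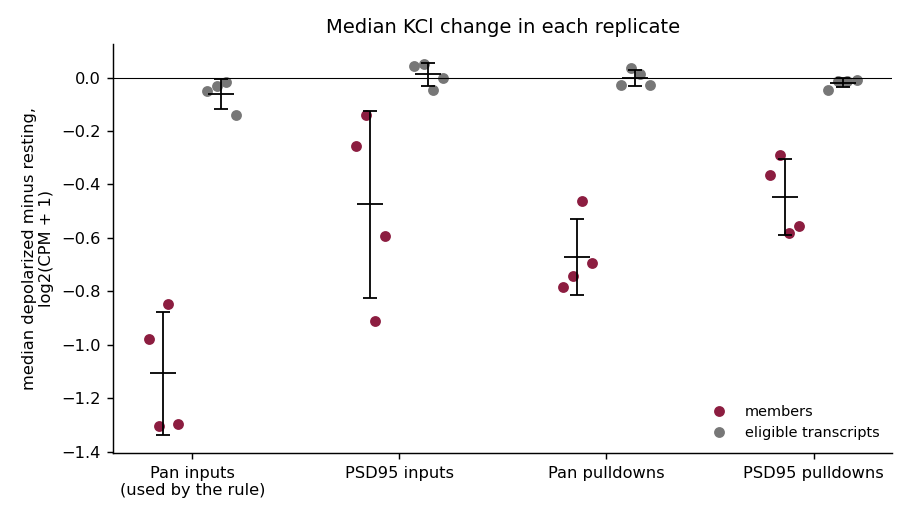
Median change after depolarization (depolarized minus resting log2(CPM + 1), y axis) over the 180 members and the 6360 eligible transcripts in each fraction. Each point is a replicate, and bars give the mean and SD over 4 replicates. The members lie below 0 in all 16 pairs, from -0.14 to -0.91 outside the Pan inputs, whereas the eligible medians stay between -0.14 and 0.05.

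With the states of the titles, the members had a negative median in every replicate of the 3 fractions that had no part in their choice. In the PSD95 inputs the medians were -0.25, -0.14, -0.91 and -0.59, with a mean of -0.47 ± 0.35 (SD, n = 4), and the eligible medians there averaged 0.01 ± 0.04. In the Pan pulldowns the medians were -0.78, -0.74, -0.46 and -0.70 (-0.67 ± 0.14), and in the PSD95 pulldowns they were -0.36, -0.29, -0.58 and -0.55 (-0.45 ± 0.14). With the states of the descriptions the sign of replicate 2 turns, and the means become -0.41 ± 0.45 in PSD95 inputs, -0.30 ± 0.71 in Pan pulldowns and -0.30 ± 0.41 in PSD95 pulldowns (SD, n = 4). The set was not chosen again by those states. By titles, the PSD95 inputs had the widest spread, with replicates 1 and 2 nearer to 0 than replicates 3 and 4. The larger fall in the Pan inputs cannot be read against these fractions, because a fall of at least 0.5 there was the condition of entry.

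Summed over the set, the members took a smaller share of the reads after depolarization in each of these fractions. In the PSD95 inputs they took 1.22%, 1.17%, 1.66% and 1.48% of the reads outside the 3 abundant transcripts at rest and 1.01%, 1.04%, 0.978% and 1.01% after depolarization. In the Pan pulldowns the shares were 1.72%, 1.59%, 1.64% and 1.69% at rest against 1.04%, 1.01%, 1.23% and 1.11%, and in the PSD95 pulldowns 1.55%, 1.53%, 1.63% and 1.55% against 1.22%, 1.20%, 1.04% and 1.09%. Resting and depolarized libraries did not overlap in any of the 3 fractions, but with the states of the descriptions they overlap in each. All eligible transcripts together took 60.1% to 65.7% of the reads in these 24 libraries, with overlapping ranges in each fraction. The means went from 1.38% ± 0.23 (SD, n = 4) to 1.01% ± 0.03 in PSD95 inputs, from 1.66% ± 0.06 to 1.10% ± 0.10 in Pan pulldowns and from 1.56% ± 0.04 to 1.14% ± 0.09 in PSD95 pulldowns.

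Counted transcript by transcript, 67 of the 180 members (37.2%) were lower in all 4 replicates of the PSD95 inputs, where 11.3% of the eligible transcripts were. Among Pan pulldowns 96 (53.3%) were lower in all 4, against 16.6%, and in the PSD95 pulldowns 68 (37.8%), against 17.0%. Over the 12 pairs outside the Pan inputs, 33 members (18.3%) were lower in every pair, against 3.41% of the eligible transcripts, and the median member was lower in 9 pairs. At the other end, 29 members (16.1%) were lower in 6 pairs or fewer, against 54.8% of the eligible transcripts, whose median was 6 pairs. The 4 depolarized CPM values all lay below the 4 resting values for 40 members (22.2%) in PSD95 inputs, for 69 (38.3%) in Pan pulldowns and for 44 (24.4%) in PSD95 pulldowns, where the eligible shares were 3.85%, 6.81% and 6.73%. Only 1 member had all depolarized values above the resting ones, in the PSD95 pulldowns, and 0 had in the other 2 fractions, where 5.31% of the eligible transcripts did in PSD95 pulldowns, 4.18% in PSD95 inputs and 6.19% in Pan pulldowns. All these counts rest on the titles. With the states of the descriptions the changes of replicate 2 turn their sign. No member counted here as lower in every replicate, in every pair or without overlap would then stay so. The counts were not made again with those states.

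**Figure D2:**
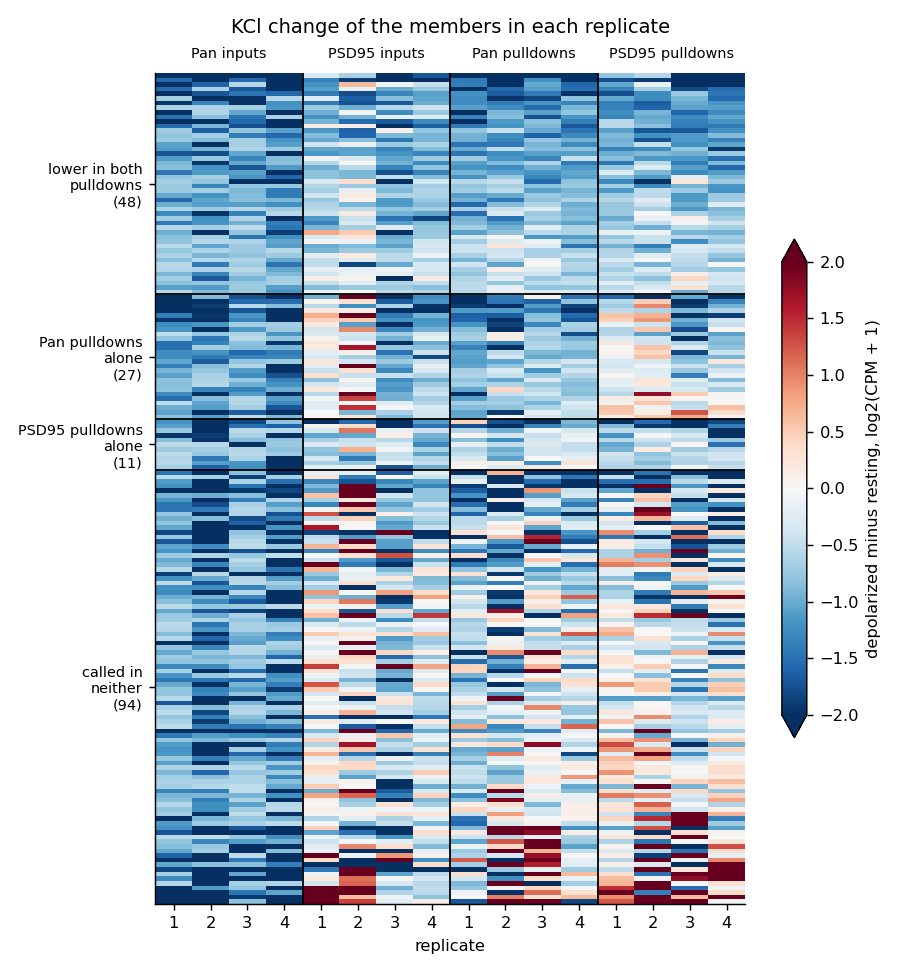
Change of each of the 180 members (rows) in each replicate (columns, 4 per fraction), as depolarized minus resting log2(CPM + 1), with blue for lower and red for higher after depolarization and the scale cut at 2 on either side. Rows are grouped by their limma calls in the pulldowns; the 48 members called lower in both are blue in nearly all columns, and the 94 called in neither mix blue and red outside the Pan inputs.

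In the PSD95 inputs, tested over their 8 libraries alone, 157 of 180 members had a log2 change below 0 and the median was -0.49, but 0 were called by limma at an adjusted p under 0.05. Among all 23127 transcripts tested 0.00432% were called lower and 0.013% higher, and among the eligible ones 0.0% and 0.0315%, so this fit made almost no calls for any transcript. At an unadjusted p under 0.05, 74 members were lower and 4 higher, where 6.11% of all transcripts and 10.9% of the eligible ones were lower. A fall of 0.5 or more in all 4 replicates was seen for 19 members (10.6%), against 0.928% of the eligible transcripts. The smallest limma adjusted p among members was 0.0728, for uc008jru.2. edgeR called 0 as well, with 48 members lower and 1 higher at an unadjusted p under 0.05. DESeq2, most of whose calls on simulated data were false, called 30 lower and 0 higher, where it called 1.15% of all and 2.44% of the eligible transcripts lower. When all 16 inputs were fitted together, limma called 37 members lower, against 1.09% of all and 3.44% of the eligible transcripts, but that fit took its spread partly from the Pan inputs used by the rule.

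In the Pan pulldowns, limma called 75 of 180 members (41.7%) lower and 0 higher, with 170 below 0 and a median log2 change of -0.71. It called 2.9% of all 32553 transcripts lower and 3.3% higher, and 8.95% and 5.17% of the eligible ones. The members' median lay below that of all transcripts tested (-0.07) and of the eligible ones (-0.10). DESeq2 called 64 members lower and edgeR 21, both with 0 higher, against 6.37% and 0.818% of the eligible transcripts. Most DESeq2 calls on the simulated data were false for this fit too, which also gave the PSD95 pulldown calls. The Pan pulldowns were made from the lysates that gave the Pan inputs, so they are not independent cultures. Without replicate 1 the limma count was 3, without replicate 2 it was 49 and without replicate 4 it was 23, against 5, 227 and 66 eligible transcripts. With the states named in the descriptions 0 members and 0 eligible transcripts were called lower, and without the libraries dominated by uc009sgd.1 59 members and 325 eligible transcripts were. The members in these counts were still those chosen by titles from all Pan inputs.

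In the PSD95 pulldowns, which came from other cultures than those that chose the members, limma called 59 (32.8%) lower and 0 higher. The shares were 4.07% and 3.89% of all 32553 transcripts and 14.6% and 4.95% of the eligible ones. The study handled the resting and activated samples of a biological replicate at the same time. The PSD95 and Pan cultures of a replicate may therefore share a preparation. The members had 142 changes below 0 and a median of -0.53, against -0.16 over the eligible transcripts and 0.08 over all tested. DESeq2 called 52 lower and edgeR 18, again with 0 higher, against 10.5% and 1.32% of the eligible transcripts. Without replicate 1 the limma count was 0, without replicate 2 it was 38 and without replicate 4 it was 28, against 0, 319 and 366 eligible transcripts. With the states of the descriptions the count was 0 and without the replicate block it was 29 (against 177 eligible transcripts). Without the pulldown libraries dominated by uc009sgd.1, which were all of replicate 3, it was 56 (against 920).

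**Figure D3:**
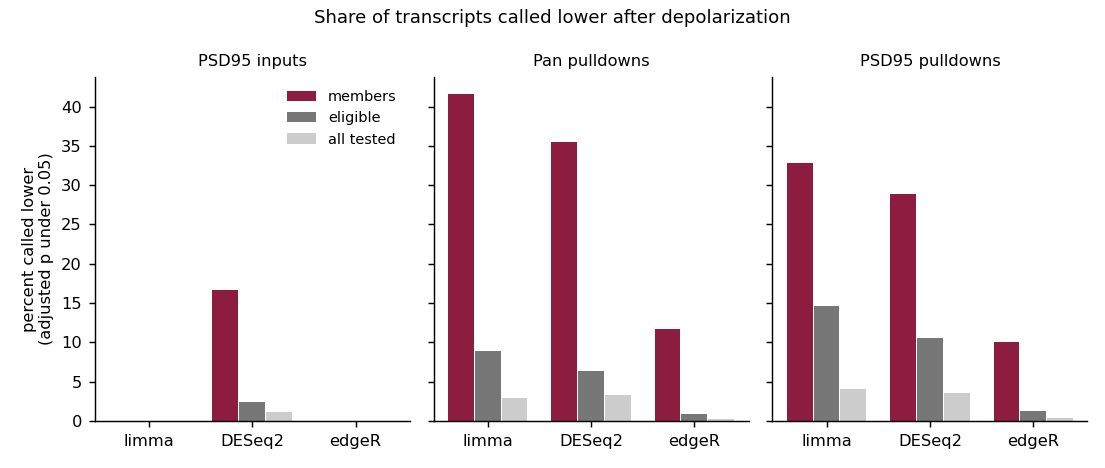
Percent of members, of eligible transcripts and of all transcripts tested that were called lower after depolarization (adjusted p under 0.05, y axis from 0) by limma, DESeq2 and edgeR in each fraction not used by the rule. In both pulldowns the members' bar is the highest under each tool, at 41.7% and 32.8% for limma, and in the PSD95 inputs limma and edgeR called 0 members.

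The calls of the 2 pulldowns met in 48 members, 64.0% of the 75 called with Pan and 81.4% of the 59 called with PSD95. Among the eligible transcripts 370 were called lower in both, 65.0% of those called with Pan and 39.7% of those called with PSD95, so the share of Pan calls also called with PSD95 was alike in members and eligible transcripts. Both changes came from the same fit of 16 pulldowns, which gives them a common estimate of the spread, but they shared no library. A further 27 members were called with Pan alone, 11 with PSD95 alone and 94 with neither. All 48 shared members were below 0 in the PSD95 inputs, with a median log2 change there of -0.75, and 40 of them had an unadjusted p under 0.05. The 94 members called in neither had a median of -0.34 in the PSD95 inputs, and 71 of them were below 0. With the states of the descriptions 0 members were called lower in either pulldown, so none were shared.

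**Figure D4:**
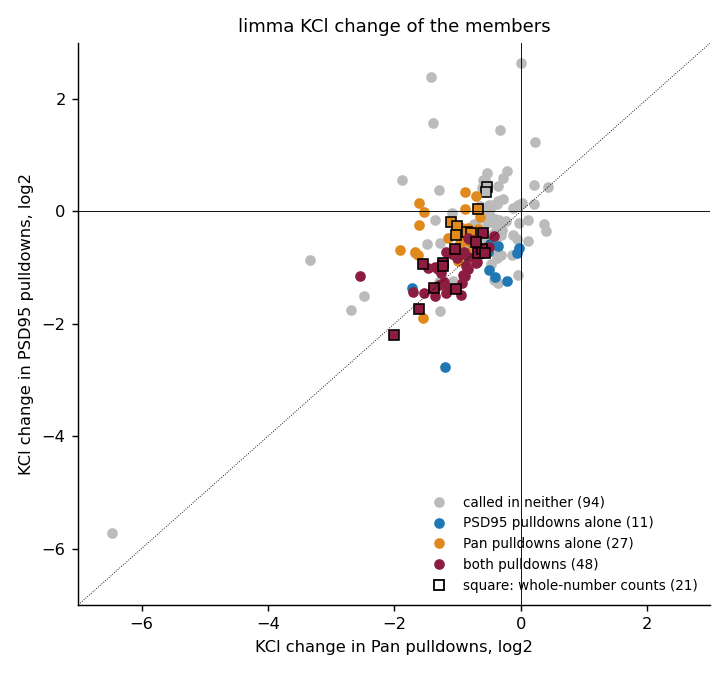
limma log2 change after depolarization of the 180 members in Pan pulldowns (x axis) and PSD95 pulldowns (y axis), coloured by the calls of the 2 comparisons; the dotted line marks equal change and squares mark the 21 members with whole-number counts. Most points lie below 0 on both axes, the 48 called in both among them, and 170 lie left of 0 while 142 lie below it.

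With 0 members called by limma in the 8 PSD95 inputs, none could be named as called in all 3 fractions (30 were when limma took all 16 inputs), so 2 called in both pulldowns, those with the lowest largest p over the 3 comparisons, were followed through every library; they were chosen after their values were seen. The transcript uc008jru.2 (5215 nt) had 134, 148, 119.8 and 151 CPM in the resting PSD95 inputs and 59.4, 70.1, 52.2 and 60.6 CPM in the depolarized ones. In the Pan pulldowns it had 174, 220.0, 146 and 171 CPM at rest and 62.0, 93.3, 67.7 and 79.4 CPM after depolarization, and in the PSD95 pulldowns 153, 181, 149.6 and 155 against 76.8, 98.0, 76.7 and 92.5 CPM. Every depolarized library lay below every resting library of its fraction. The log2 change was -1.25 ± 0.12 (SE) in PSD95 inputs, -1.31 ± 0.09 in Pan pulldowns and -1.03 ± 0.09 in PSD95 pulldowns, with limma adjusted p of 0.0728, 4.49e-05 and 0.000128. In the Pan inputs it had 160.0, 162, 149.7 and 157 CPM at rest and 48.0, 46.4, 72.1 and 0 CPM after depolarization. The 0 came from the library with the fewest reads outside the 3 abundant transcripts. The estimated counts of uc008jru.2 were not whole numbers in all libraries. Its levels may therefore rest on a split of reads among transcripts, which was not tested.

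The transcript uc008xgy.2 (1685 nt), whose estimated counts were whole numbers in all libraries, as they are when no read is split between transcripts, showed the same order. It had 91.3, 89.7, 71.9 and 63.3 CPM in the resting PSD95 inputs and 33.8, 25.6, 28.6 and 29.1 CPM in the depolarized ones. It had 96.7, 79.5, 62.1 and 75.5 against 41.4, 24.5, 22.7 and 18.6 CPM in the Pan pulldowns and 109.8, 67.3, 47.5 and 65.6 against 31.4, 27.8, 27.6 and 23.4 CPM in the PSD95 pulldowns. Resting and depolarized libraries again did not overlap in any of these 3 fractions. The log2 change was -1.36 ± 0.17 (SE), -1.61 ± 0.17 and -1.74 ± 0.16 in the 3 fractions, with limma adjusted p of 0.0948, 0.000501 and 0.000201. Without replicate 1 its Pan pulldown change was -1.84 with a limma adjusted p of 0.0790, and with the states of the descriptions it was -1.37 (adjusted p of 0.111). For uc008jru.2 the latter was -1.08 (limma adjusted p of 0.105).

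**Figure D5:**
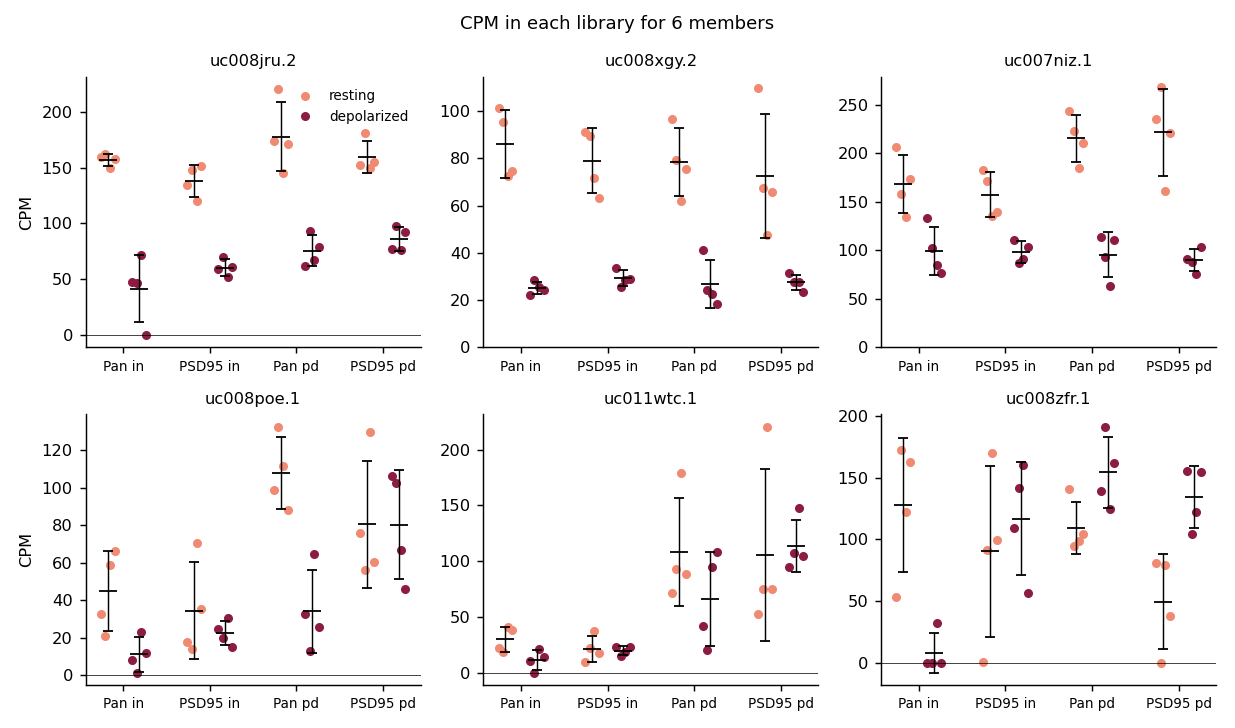
CPM in each library (y axis, linear) for 6 members, by fraction (in, input; pd, pulldown) and state, with bars for the mean and SD of 4 replicates. uc008jru.2 and uc008xgy.2 separate resting from depolarized libraries in the 3 fractions not used by the rule, uc008poe.1 does so in the Pan pulldowns alone, and uc008zfr.1 lies under 0.05 CPM in 3 of 4 depolarized Pan inputs and under 1 CPM in 1 resting library each of the PSD95 inputs and pulldowns.

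Not all members went down elsewhere. The 2 with the highest mean change over both pulldowns were uc007bnv.2 (2333 nt) and uc008zfr.1 (2308 nt). In the depolarized Pan inputs uc008zfr.1 was estimated at 0.0443, 0.0435, 31.9 and 0 CPM, against 53.5, 172, 123 and 163 CPM at rest. In the Pan pulldowns of the same lysates it had 139.6, 191, 125 and 162 CPM after depolarization and 141, 94.4, 98.7 and 104 CPM at rest. Its depolarized pulldowns therefore lay far above the inputs of the same lysates. In the PSD95 pulldowns it had 155, 105, 122 and 155 CPM after depolarization against 80.7, 0, 79.3 and 38.2 CPM at rest, a log2 change of 1.23 ± 0.41 (SE) and a limma adjusted p of 0.0875. With a filter of mean CPM of at least 5 the latter was 0.0164, the only call of a higher change among the 180 members in that comparison. The change of uc007bnv.2 there was 2.64 ± 1.85 (adjusted p of 0.433), with 3 of its 32 libraries at exactly 0 and others near it. Both transcripts had counts that were not whole numbers, so their levels may rest on a split of reads among transcripts, which was not tested.

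Estimates of 0 were common in the set. A member was at 0 in some library in 52 cases (28.9%), against 17.7% of the eligible transcripts, and 31 members were at 0 in a depolarized Pan input while 0 were in a resting Pan input, as the rule favours. The depolarized Pan input of replicate 4, with 613000 reads outside the abundant transcripts, had 22 members at 0 and that of replicate 2 had 12. Of the 48 members called lower in both pulldowns 6.25% had a 0 somewhere, and of the 94 called in neither 45.7% had. The latter also had fewer reads, with a median mean count of 308 against 567.

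Whole-number counts, which arise where reads are not split between transcripts although the split itself was not examined, to within 0.001 in every library, were found in 21 members (11.7%) and in 964 eligible transcripts (15.2%). A larger share of these members was called lower than of the rest. With Pan pulldowns 19 of 21 (90.5%) were called lower by limma, against 56 of the 159 other members (35.2%). In the PSD95 pulldowns it was 13 of 21 (61.9%) against 46 of 159 (28.9%), and in the PSD95 inputs 12 of 21 had an unadjusted p under 0.05 against 62 of 159. Among eligible transcripts the called shares of the same kinds were 9.54% with whole-number and 8.84% with other counts in Pan pulldowns and 15.5% and 14.5% in PSD95 pulldowns. The difference between the members of the 2 kinds was not tested. Of the 21, 10 (47.6%) were lower in all 12 pairs outside the Pan inputs, and of the 159, 23 (14.5%) were. How the split of reads bears on this was not tested.

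The change was next compared between the constructs within the pulldowns, as the difference of the PSD95 and the Pan change. 0 members were called by limma in either direction, with 33 above and 5 below 0 at an unadjusted p under 0.05, where 452 of the 6360 eligible transcripts were above and 744 below. The shares called at the adjusted p were 0.0123% lower and 0.00922% higher of all transcripts and 0.0472% and 0.0157% of the eligible ones. The median difference over members was 0.23, against 0.12 over all tested and -0.06 over the eligible transcripts, and 62 of 180 were below 0. Because the Pan pulldowns shared lysates with the choosing Pan inputs, the choice may have tilted these differences upward. The 121 transcripts chosen with the sign of the rule turned had a median difference of -0.35. At a limma unadjusted p under 0.05, 40 of them were below and 3 above 0. How much the choice added was not tested, so the members' differences do not by themselves show a difference between constructs. edgeR called 0 and DESeq2 called 2 members higher (1.11%), near its share of 1.38% of all transcripts and 0.440% of the eligible ones. The smallest adjusted p, 0.107, belonged to uc008poe.1 (4898 nt), which had 98.7, 132, 112 and 88.2 CPM in resting and 32.3, 13.0, 64.6 and 25.8 CPM in depolarized Pan pulldowns. In the PSD95 pulldowns it had 75.7, 55.9, 129.6 and 60.5 CPM at rest and 106, 102, 66.5 and 46.2 CPM after depolarization. The Pan values did not overlap and the PSD95 values did, for a difference of 1.77 ± 0.34 (SE), above 0 in 3 of 4 replicates. DESeq2 gave it an adjusted p of 0.0409. In the other direction, uc007ckz.1 (3514 nt) had a difference of -0.63 ± 0.18 (limma adjusted p of 0.210) and was negative in 4 of 4 replicates.

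Within TurboID-PSD95, the change in the pulldown was compared with the change in its own input. Limma called 0 members, edgeR 0 and DESeq2 0, and at an unadjusted p under 0.05 limma had 7 lower and 4 higher. The shares called were 0.0033% lower and 0.0% higher of all 30335 transcripts and 0.0157% and 0.0% of the eligible ones, of which 8.14% were lower at the unadjusted threshold. The median difference was 0.04, with 82 of 180 below 0. The lowest p among members belonged to uc007niz.1 (3446 nt), whose difference of -0.77 ± 0.16 (SE) had an adjusted p of 0.388 by limma and was below 0 in 4 of 4 replicates. It fell in the PSD95 pulldowns by 1.46 ± 0.09 in log2 units (limma, adjusted p of 2.06e-05), and its change in the PSD95 inputs was -0.63 ± 0.13 (adjusted p of 0.178). In the other direction uc029szc.2 (6011 nt) had a difference of 2.76 ± 0.87 with an adjusted p of 0.624, and its depolarized PSD95 inputs were 17.7, 0.0487, 4.61e-05 and 22.6 CPM.

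Localization was read as PSD95 against Pan pulldowns in each state. At rest limma called 0 members in either direction, where 0.00307% of all transcripts were lower and 0.00614% higher and 0.0157% of the eligible ones were in either direction, with 24 members lower and 5 higher at an unadjusted p under 0.05 against 7.61% of the eligible transcripts lower, and a median log2 difference of -0.12. After depolarization it also called 0, where 0.111% and 0.0184% of all and 0.22% and 0.0629% of the eligible transcripts were, with 4 lower and 19 higher at an unadjusted p under 0.05, against 880 and 349 of the 6360 eligible transcripts. The median was 0.10, against -0.08 over the eligible transcripts. edgeR called 0 in both states, and DESeq2 called 0 at rest and 1 member (0.556%) higher after depolarization, where it called 0.503% of the eligible transcripts higher. The members of lowest p at rest were uc007ckz.1, at 0.42 ± 0.12 (SE, limma adjusted p of 0.321), and uc007bhr.1 (3482 nt), at -0.39 ± 0.09 (adjusted p of 0.264). After depolarization they were uc008poe.1, at 1.31 ± 0.28 (adjusted p of 0.105), and uc007axd.1 (2624 nt), at -0.61 ± 0.19 (adjusted p of 0.254). Each of these differences had the same sign in 4 of 4 replicates. Because the Pan pulldowns shared lysates with the choosing Pan inputs, the choice may have tilted these values, downward at rest and upward after depolarization. The 121 transcripts higher by 0.5 or more in every Pan input replicate had medians of 0.19 at rest and -0.15 after depolarization. The part of the choice in these values was not tested, so they do not by themselves show a difference in localization.

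The PSD95 pulldown was then set against the PSD95 input over both states, a comparison in which no library was used by the rule. Limma called 32 members (17.8%) higher and 18 (10.0%) lower in the pulldown. Of all 30335 transcripts 10.1% were called higher and 10.9% lower, and of the eligible ones 9.07% and 32.0%. The members' median log2 difference was -0.07, against -0.25 over the eligible transcripts and 0.07 over all tested. With RLE scaling in place of TMM, which moved the median of all transcripts to 0.19, 40 members were higher and 15 lower and the eligible counts went from 577 higher and 2037 lower to 746 and 1567. The members' median was then 0.04, so its sign depends on the scaling. Without replicate 1, 8 members were called higher and 4 lower, against 244 and 496 eligible transcripts. With the states of the descriptions 23 members were higher and 17 lower, against 503 and 1733 eligible transcripts. Without the libraries dominated by uc009sgd.1, 31 members were higher and 11 lower, against 504 and 1489. edgeR called 11 members higher (6.11%) and 9 lower (5.00%), against 5.17% and 17.0% of the eligible transcripts. Of the 21 members with whole-number counts limma called 1 (4.76%) higher and 4 (19.0%) lower, against 4.05% and 52.8% of such eligible transcripts, so 31 of the 32 higher calls came from the 159 other members (19.5%, against 9.97%).

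The transcript of lowest p among those higher in the pulldown was uc011wtc.1 (7356 nt). It had 9.13, 22.1, 37.2 and 17.4 CPM in resting and 22.9, 15.1, 18.0 and 23.0 CPM in depolarized PSD95 inputs. In the pulldowns it had 52.5, 75.0, 221 and 75.1 CPM at rest and 95.1, 107, 147 and 105 CPM after depolarization, so every pulldown lay above every input. The log2 difference was 2.07 ± 0.20 (SE; adjusted p of 3.29e-05 by limma), higher in 4 of 4 replicates. It was followed by uc007bhr.1, at 0.82 ± 0.08 (adjusted p of 3.68e-05). In the other direction uc008atb.1 (2507 nt) was lower in the pulldown at -0.54 ± 0.08 (limma adjusted p of 0.000703), as was uc007vjo.2 (3496 nt) at -0.48 ± 0.08 (adjusted p of 0.00138), both in 4 of 4 replicates. Without replicate 1 neither was called (limma adjusted p of 0.0809 and 0.0868), and without the replicate block uc008atb.1 was not (adjusted p of 0.103). The member uc008atb.1 also fell after depolarization in both pulldowns, by 0.69 ± 0.12 with Pan and 0.90 ± 0.12 with PSD95 (limma adjusted p of 0.00478 and 0.00107).

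Members were longer than the eligible transcripts, with a median of 4810.5 nt against 3626 nt, and only 8 (4.44%) were 1000 to 1999 nt long against 14.6% of the eligible. Their level was lower per length, with a median of 6.54 TPM (a level scaled by transcript length) in the resting PSD95 inputs against 8.78 TPM. Within the class of 4000 to 5999 nt, 29 of 62 members (46.8%) were called lower in Pan pulldowns and 25 (40.3%) in PSD95 pulldowns, against 10.6% and 14.7% of eligible transcripts of that length. In the class of 6000 to 7999 nt it was 21 of 58 (36.2%) and 14 (24.1%), against 14.4% and 16.7%. For the PSD95 pulldown against its input, limma called 26.9% higher and 7.69% lower among the 52 members of 2000 to 3999 nt against 9.51% and 30.6%. Higher calls were nearer the eligible share in the longer classes, at 12.9% against 10.0% for 4000 to 5999 nt and 10.3% against 8.01% for 6000 to 7999 nt. By abundance, 60.0% of the 65 members with a mean count of 500 or more were called lower in Pan pulldowns and 52.3% in PSD95 pulldowns, against 14.4% and 25.7% of eligible transcripts as abundant. For the 47 members with a mean count of 300 to 499 the shares were 27.7% and 25.5%, against 5.79% and 9.45%. For the 68 members with a mean count of 200 to 299 the shares were 33.8% and 19.1%, against 4.87% and 5.19%. The share in Pan pulldowns therefore did not rise steadily with abundance.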

How the data were processed

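RNA of 32 libraries was analysed, with 4 replicates in each of 8 groups, which were read from titles. The authors quantified reads with salmon against mm10 UCSC knownGene transcripts; for its version and options nothing was found, as they are not given in the sources used here. DESeq and limma are further tools in the submitters' processing notes. Estimated counts (expected counts), for which reads were split among similar transcripts, and TPM, a length-scaled level, were both deposited by the authors for every library. Counts were rounded to whole numbers for the tests, and TPM served only to describe levels. Members and lists were chosen with earlier results of these data known.

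Tests used limma 3.58.1 (voomWithQualityWeights, R 4.3.3) after filterByExpr and TMM scaling from edgeR 4.0.16, terms for group and replicate as in the study's model, which took the replicate as a batch, and two-sided Benjamini-Hochberg adjusted p under 0.05 over all transcripts tested. PSD95 inputs were fitted on their 8 libraries alone because the rule used the Pan inputs. All 180 members passed the filter in each fit. The edgeR quasi-likelihood test, DESeq2 1.42.0 and the other alternatives in the closing section were also run, and the fits were tested on simulated data. In the simulated data most DESeq2 calls were false in each fit, limma and edgeR made few or no false calls, and both missed nearly all of the known changes for the 8 PSD95 inputs. The simulated counts held no effect of replicate, and not every comparison was simulated. They therefore do not give the rate of false calls in the real data. Changes per replicate were differences of log2(CPM + 1), with a pseudocount of 1. Members named were those of lowest p in each direction of a comparison (their mean log2 CPM being 1 or more), those of highest mean change in the pulldowns, and those at the edge of the rule. The rule to name members called in all 3 fractions found 0, so 2 called in both pulldowns were taken.

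The study describes the replicates as biological, and the pairing by replicate number rests on its batch term. Residuals had a mean r of 0.154 (inputs) and 0.128 (pulldowns) between libraries of equal number and of -0.048 and -0.039 otherwise, with single pairs down to -0.014. Among 48 replicate pairs, 0 were identical and chi-square divided by its degrees of freedom was at least 39.7. Promoter and protein sequences were not used here, since no identifier matched.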

Additional observations from a re-analysis of the deposited data

Results flagged for a closer look

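Among 115 groups of 4 libraries examined for a value far from the other 3, for the named members, the medians over members and the members' share of reads, 4 held such a value, and chance alone gives about 1 in 20 groups. The depolarized Pan inputs had 31.9 CPM of uc008zfr.1 in replicate 3, where the other 3 replicates were under 0.05 CPM. They had 1.36 CPM of uc029szc.2 in replicate 4, where the others were 31.8 to 34.5 CPM. That library of replicate 4 had the fewest reads outside the 3 abundant transcripts. The resting PSD95 pulldown of replicate 3, with 632209 reads outside the 3 abundant transcripts, had 242 CPM of uc007bhr.1 against 123 to 135 CPM in the other replicates. The same library had 221 CPM of uc011wtc.1 against 52.5 to 75.1 CPM.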

How the results depend on the processing

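Counts below are of members called, lower unless stated. In PSD95 inputs the 0 calls became 30 with DESeq2, 8 without a filter on low counts, 1 when a mean of at least 5 CPM was required and 37 with all 16 inputs, and stayed 0 without each replicate. Eligible transcripts called lower in these fits were 155, 76, 2 and 219, and 0 without each replicate. Pan pulldown calls (75) became 21 with edgeR and 0 with the states of the descriptions, and 3 to 59 without a replicate. The eligible calls there (569) became 52, 0 and 5 to 321. PSD95 pulldown calls (59) became 18 with edgeR and 0 with the states of the descriptions, and 0 to 57 without a replicate. The eligible calls there (931) became 84, 0 and 0 to 939. Without the replicate block the counts were 57, 29 and 36 (in either direction) for Pan pulldowns, PSD95 pulldowns and pulldown against input, and 0 for the other 5 comparisons. The eligible calls were 274 and 177 lower in the pulldowns, and 445 higher and 1265 lower for pulldown against input. With other members, by a threshold of -0.25 (473), of -1 (33) or with CPM from all reads (517), calls were 176, 15 and 171 in Pan pulldowns and 154, 8 and 140 in PSD95 pulldowns, to which 1 higher call (Pan, all reads) and 10 and 19 (PSD95, -0.25 and all reads) are added. The lower calls are 37.2%, 45.5% and 33.1% of these sets in Pan pulldowns, against 8.95% of the eligible transcripts. In PSD95 pulldowns they are 32.6%, 24.2% and 27.1%, against 14.6%. DESeq2 called 2 members higher for the difference between constructs and 1 higher for PSD95 against Pan after depolarization, against 28 and 32 eligible transcripts. Without the filter 1 member was called lower for pulldown against input change, against 16 eligible transcripts. Pulldown against input calls in either direction (50) became 20 with edgeR and 12 to 42 without a replicate. The eligible calls (577 higher and 2037 lower) became 329 and 1084 with edgeR, and 244 to 447 and 496 to 1855 without a replicate. The medians became -0.97 in PSD95 inputs and -0.19 in PSD95 pulldowns with CPM from all reads, -0.30 in Pan and -0.30 in PSD95 pulldowns with the states of the descriptions, and -0.46 and -1.02 in Pan pulldowns with the thresholds of -0.25 and -1. Without a replicate they were -0.59 to -0.33, -0.74 to -0.63 and -0.50 to -0.40 in PSD95 inputs, Pan pulldowns and PSD95 pulldowns. No named member changed sign under an alternative, and in 10 cases a named member crossed the threshold of its test. The median of all transcripts moved by over 0.1 in 10 cases, the farthest without the filter in PSD95 pulldowns, to -0.15 from 0.08. The fewest reads outside the abundant transcripts were in the depolarized Pan input of replicate 4, with 22 members at 0, and the resting PSD95 pulldown of replicate 3, with 6. The causes of these changes were not tested.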

Other observations

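With the sign of the rule turned and the 3 abundant transcripts left out, 121 transcripts were higher by 0.5 or more in every Pan input replicate. Their median change was 0.72 ± 0.37 (SD, n = 4) in PSD95 inputs, 0.79 ± 0.15 in Pan pulldowns and 0.55 ± 0.27 in PSD95 pulldowns. Of these, 54.5%, 62.0% and 50.4% were higher in all 4 replicates of the 3 fractions, where 37.2%, 53.3% and 37.8% of the 180 lowered transcripts were lower in all 4. Among the eligible transcripts 12.6%, 16.6% and 14.8% were higher in all 4, and 11.3%, 16.6% and 17.0% were lower. The raised transcripts had a median length of 3103 nt against 4810.5 nt, and 17.4% of them were at 0 in some library against 28.9%.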
